A study of Saccharomyces cerevisiae with 11 samples.

Results

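The small nucleolar RNA (snoRNA) genes of budding yeast were taken as all nuclear genes whose symbol is SNR followed by a number and an optional letter. The rule found 79 genes among the 6369 nuclear genes measured. Of these, 76 are annotated as snoRNA genes, and 3 are not: SNR6, SNR14 and SNR19 encode the U6, U4 and U1 RNAs of the spliceosome. The latter are kept apart where it matters. By RNA class, the snoRNA genes divide into box C/D RNAs, which guide ribose methylation of ribosomal RNA, and box H/ACA RNAs, which guide pseudouridylation. A few, such as U3 (SNR17A and SNR17B) and SNR30, act in the cleavage of the ribosomal RNA precursor.

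In yeast most snoRNA genes have promoters of their own. Some box C/D genes lie in polycistronic clusters, whose precursor is cut apart by the endonuclease Rnt1 and trimmed by exonucleases, and a few snoRNAs are excised from introns of protein-coding genes. The annotated gene is in most cases the span of the mature RNA. Its 5′ end is the transcription start site for RNAs that keep their cap, but lies downstream of the start site where a leader is removed. SNR6 and SNR52 are transcribed by RNA polymerase III, the other genes by RNA polymerase II. Promoters of active yeast genes commonly show a nucleosome-depleted gap bordered by positioned nucleosomes.

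Of the 79 genes, 54 were independent (27 box H/ACA, 24 box C/D and the 3 spliceosomal genes), 17 lay in 5 clusters, and 8 lay inside a protein-coding gene on the same strand and are called intronic here. A cluster was defined as genes on 1 strand within 300 bp of each other. The annotation used gives only gene spans, not exons. The clusters were SNR78 to SNR72 (7 genes), SNR41, SNR70 and SNR51 (3), SNR57, SNR55 and SNR61 (3), SNR190 and SNR128 (2), and SNR67 and SNR53 (2). The genes were short, from 78 to 1004 bp with a median of 126 bp, and the windows of 19 genes overlapped the window of another member, so those values share reads.

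Chromatin was profiled with micrococcal nuclease, which cuts linker and other exposed DNA, so that the fragments left mark protected, mostly nucleosomal, DNA. The 11 libraries came from BY4742-derived strains in which Top1 and Top2, the topoisomerases that relax DNA supercoils, both carried an auxin-inducible degron (AID). Strain yTL1245 (4 libraries) had no OsTIR1, the F-box protein that auxin needs to trigger degradation, and was grown without auxin. Strain yTL1290 carried OsTIR1 under the ADH1 promoter and was untreated (4 libraries) or given 500 uM auxin for 60 min (3 libraries), from a split culture. All cells, controls included, carried both degron tags, grew in synthetic medium with 2% galactose and were fixed with paraformaldehyde. The labels give a low (0.0117 U) or a high (0.1875 U) nuclease dose. Nothing in the labels says that replicates came from separate cultures, so p-values measure the spread between these libraries.

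The labelled dose differed from the dose in the deposited file's name for 4 libraries: untreated OsTIR1 low replicate 2 and high replicate 2, and auxin low replicate 1 and high replicate 1. For 1 of them, untreated OsTIR1 high replicate 2, the file name also gave auxin. Libraries with the high dose in the file name are called heavily digested (6, mean fragment length 129.0 to 140.3 bp), and those with the low dose lightly digested (5, 149.8 to 162.2 bp). Each library held 9220720 to 31178329 fragments, or 111.0 to 332.0 fragments per base over the nuclear genome. LEU2, LYS2 and URA3, deleted in BY4742, were at 0 to 0.00233 of the nuclear mean in all libraries. HIS3 was at 0.210 to 0.384 without OsTIR1 and at 0 to 0.000349 with it, so by HIS3 the libraries split as the labelled strains do. LEU2, LYS2 and URA3 do not tell the strains apart.

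Values are relative coverage, the fragment coverage divided by the library's nuclear mean without the ribosomal DNA. This is a relative scale: a gain at 1 place is balanced elsewhere. A gap is the widest stretch under 0.5 in the gene and 300 bp on each side, after smoothing over 21 bp.

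Independent SNR genes had a wide gap next to the gene in heavily digested chromatin, and hardly any gap in lightly digested chromatin. Their median gap was 155, 142.5, 151.5, 153, 145 and 144.5 bp in the 6 heavily digested libraries, in the order of the plot of gap widths. It was 0, 0, 0, 2.5 and 0 bp in the 5 lightly digested libraries. The ranges did not overlap, and 50 of the 54 genes had a narrower median gap in the lightly digested libraries. The other 4 were SNR66, which had almost no gap in either digestion, and 3 long genes: SNR19 (568 bp), SNR84 (550 bp) and SNR86 (1004 bp).

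**Figure D1:**
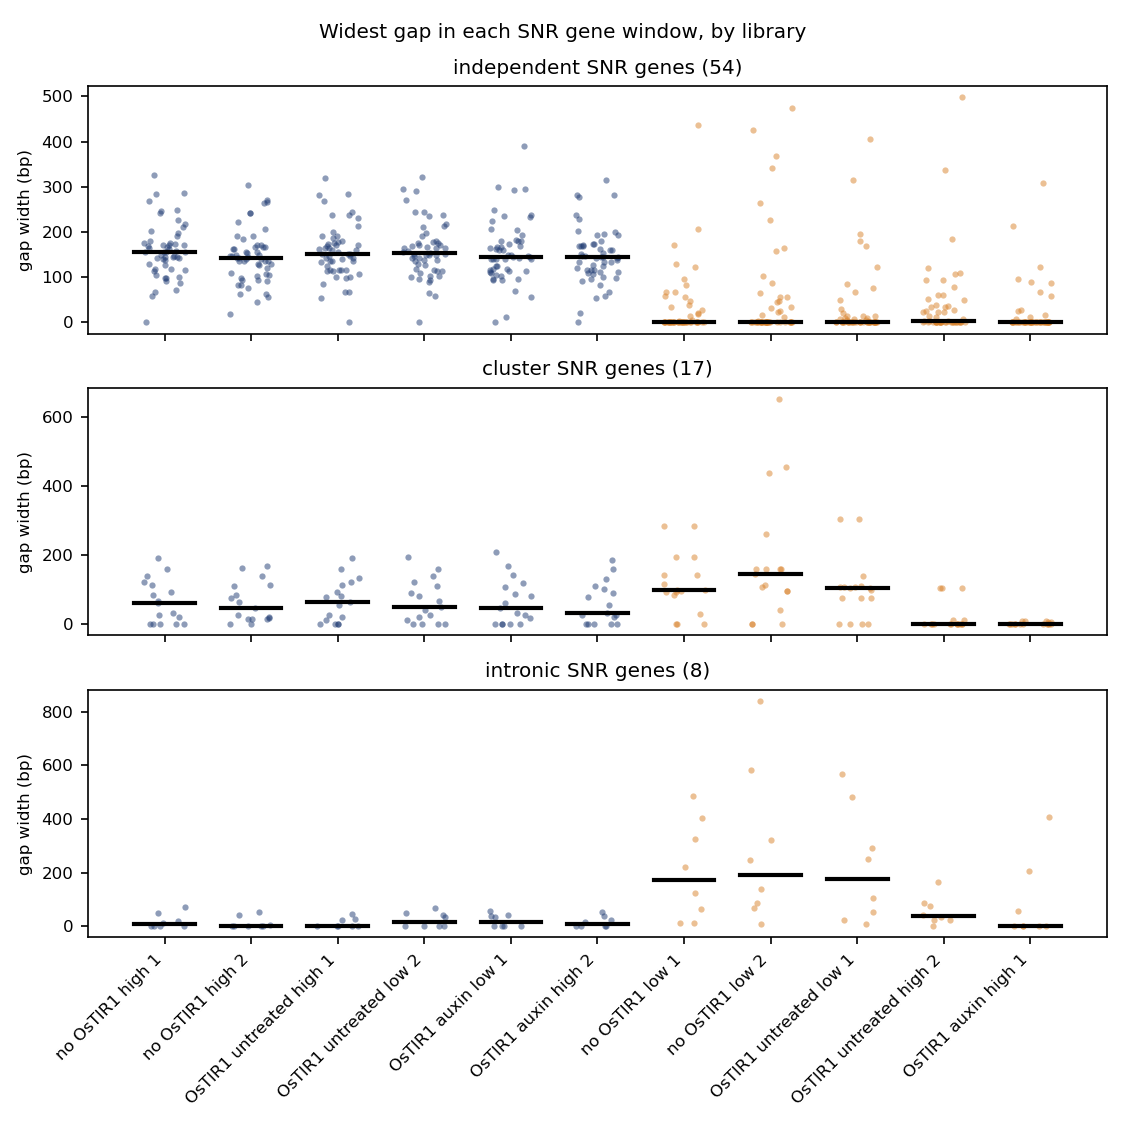
Width of the widest gap (bp, y axis) in each SNR gene window in each library (x axis), with independent, clustered and intronic genes in separate panels, heavily digested libraries in blue and lightly digested ones in orange. Points are genes and bars are medians: for independent genes the bars lie at 142.5 to 155 bp in blue and 0 to 2.5 bp in orange, and for intronic genes at 0 to 16.5 bp in blue.

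Coverage was also read at fixed positions. For this, gaps of at least 100 bp were defined in 1 library alone, no OsTIR1 high replicate 1, where 46 independent genes had one. Over those positions the median relative coverage in the 5 other heavily digested libraries was 0.136 to 0.198. In the 5 lightly digested libraries it was 0.966 to 1.49, and the mean over the gap exceeded 1 at 20 to 42 of the 46 genes.

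The independent genes also had wider upstream gaps than other genes. In the 300 bp upstream of the gene, the median gap was 135 to 150 bp for independent SNR genes in the heavily digested libraries. It was 94 to 106 bp for the 5962 protein-coding genes, measured from their start codon, and 70 to 77 bp for the 275 tRNA genes. A gap of at least 100 bp was present at 70.4% to 85.2% of independent SNR genes and at 44.2% to 53.4% of all nuclear genes. In the lightly digested libraries the median was 0 bp for all of these gene types. These are descriptions without a test, and start codons and mature RNA ends are different reference points. The measure also stops at the gene's first base, so a gap that runs on into the gene is counted only in part. How often that holds for tRNA genes was not measured, so their widths are not those of whole gaps.

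The gap lay upstream of the gene in 41 of the 54 independent genes, touched the gene body in 6 and lay downstream in 6, and SNR66 had none in the median. The highest point of coverage within 200 bp on each side of the gap was taken as its flanking peak. Across the heavily digested libraries the median upstream peak of independent genes was at 291 to 322 bp before the gene's 5′ end with a height of 1.27 to 1.39, and the median downstream peak was 44 to 56 bp inside the gene with a height of 1.20 to 1.32. The peaks were 322 to 361 bp apart. The gap reached the window edge in 12 to 17 of the 54 genes per library. In those genes a peak taken this way can still lie inside the gap, and it enters the medians. Among independent box C/D genes whose gap began upstream of the gene, the lowest upstream height was 0.100. Followed beyond the window, the median gap was 146.5 to 159.5 bp.

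**Figure D2:**
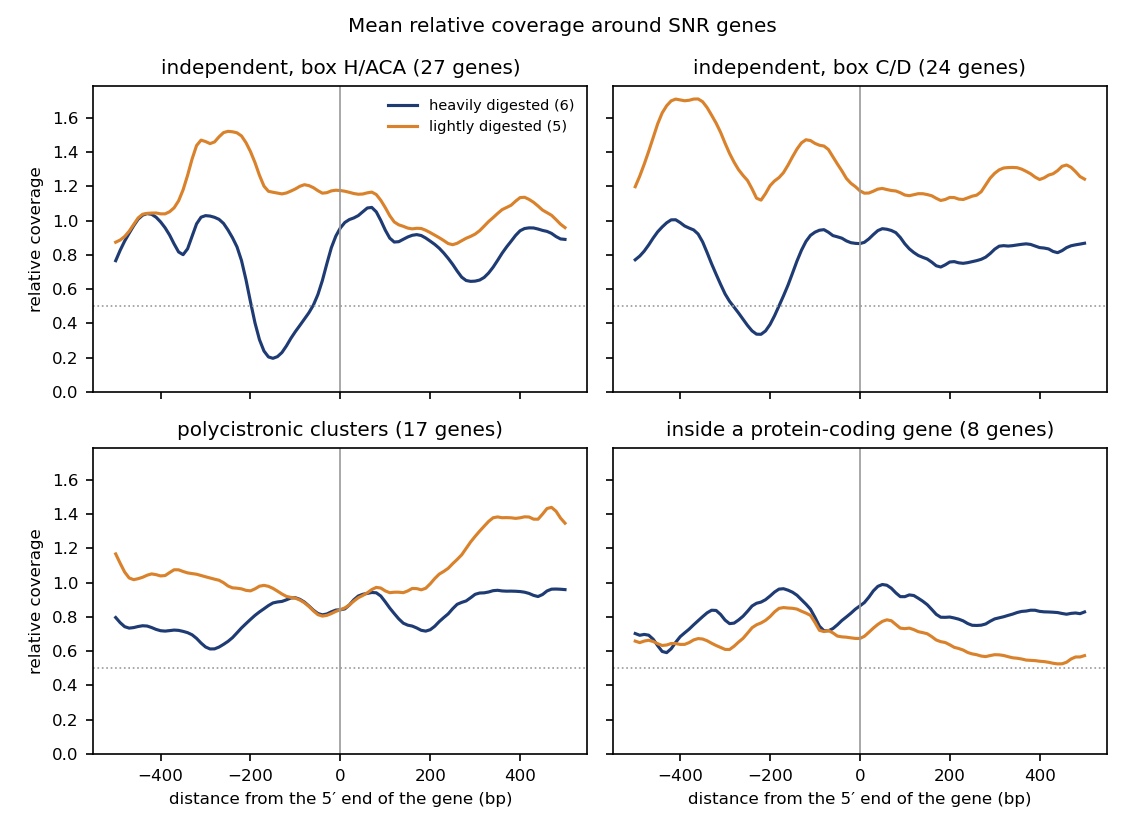
Mean relative coverage (y axis) against distance from the gene's 5′ end (bp, x axis) for 4 gene types, averaged over the 6 heavily digested (blue) or 5 lightly digested (orange) libraries. Within 300 bp of the 5′ end, the lowest point in blue is 0.197 at -150 bp for independent box H/ACA genes and 0.337 at -220 bp for independent box C/D genes, while for intronic genes it is 0.719 in blue and 0.568 in orange.

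Box H/ACA and box C/D genes differed in where the gap ended. Among independent genes whose gap began upstream of the gene, the downstream edge lay at a median of -43 bp from the 5′ end in 25 box H/ACA genes and at -147 bp in 17 box C/D genes. The next peak lay at a median of 55.5 bp, inside the gene, for box H/ACA genes and at -50 bp, before it, for box C/D genes. The edge lay more than 100 bp upstream in 7 of the 25 box H/ACA genes and in 11 of the 17 box C/D genes. Per heavily digested library, the gap reached a border of the window in 8 to 12 of the 24 independent box C/D genes. In the 27 independent box H/ACA genes it did so in 3 to 5. Such a gap can run on beyond the window, and whether it belongs to the neighbouring gene was not tested.

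The spread within each class was wide, and the classes overlapped. In box H/ACA the edge ran from -243.5 bp at SNR46 to 2 bp at SNR8. SNR30, needed for early cleavage of the precursor of the small-subunit rRNA, had its edge at -45.5 bp, and SNR10 at -35 bp. SNR46, SNR36, SNR84, SNR43, SNR80, SNR83 and SNR85 had edges between -243.5 and -109.5 bp. All but SNR46 of these lay in the range of the box C/D genes, whose farthest edge was at -204 bp. In box C/D, SNR69 (-204 bp), SNR63 (-201.5 bp), SNR71 (-186 bp) and SNR60 (-184.5 bp) were the farthest upstream. SNR13 (-20 bp), SNR45 (-11.5 bp) and the U3 gene SNR17A (-30.5 bp) had edges close to the gene, as box H/ACA genes did. No test was made between classes, since the genes are not replicates.

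**Figure D3:**
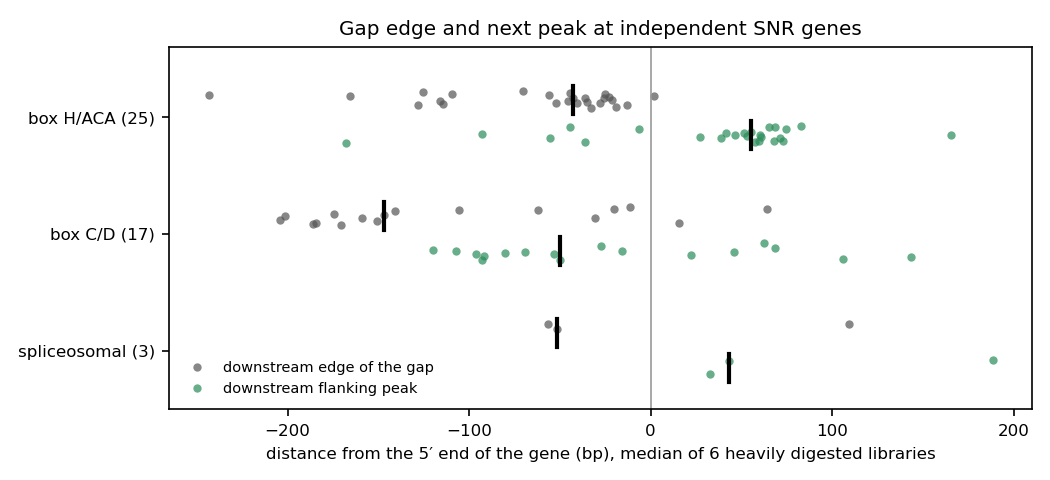
Position of the gap's downstream edge (grey) and of the next coverage peak (green), in bp from the gene's 5′ end (x axis), for independent genes of 3 RNA classes. Points are genes, each the median of 6 heavily digested libraries, and bars are class medians: the edge at -43 bp for box H/ACA and -147 bp for box C/D.

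The widest gaps belonged to SNR48, SNR33, SNR52, SNR17A and SNR39B. SNR17A (chrXV:780107-780596, + strand), 1 of the 2 U3 genes, had a gap of 268, 270.5 and 294 bp (lowest, median and highest of the heavily digested libraries). The gap reached the window edge in all 6 and was 563 to 603 bp wide when followed beyond it. In the lightly digested libraries it was 0 bp in 4 and 64 bp in no OsTIR1 low replicate 2. SNR17B, the second U3 gene, had a gap of 191, 195.5 and 202 bp, followed to 408 to 441 bp. The SNR17 genes are near-identical copies, and how reads that fit both were placed is not given in the sources used here.

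SNR33 (chrIII:142364-142546, - strand), a box H/ACA gene with the tRNA gene SUF16 154 bp upstream, had a gap of 266, 284.5 and 293 bp in the heavily digested libraries and 0 bp in all 5 lightly digested ones. SNR48 had a gap of 304, 321 and 390 bp that lay mostly downstream of the gene. SNR39B (200, 239.5 and 243 bp) and SNR189 (228, 237.5 and 246 bp) likewise had their widest gap downstream, on the side of the ribosomal protein genes RPL7A, 377 bp away, and RPS14A, 389 bp away. Whether those gaps belong to the neighbouring gene was not tested. At the narrow end, 10 genes had a median gap of 0 bp: SNR66, the clustered genes SNR55, SNR74, SNR75 and SNR76, and the intronic genes SNR24, SNR38, SNR44, SNR54 and SNR59.

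The spliceosomal genes SNR14 and SNR19, transcribed by RNA polymerase II, had upstream gaps with edges in the range of the box H/ACA genes: 139 and 163.5 bp wide and ending at -56.5 and -51.5 bp. In the lightly digested libraries SNR19 had a gap of 437, 474, 406, 336 and 308 bp, wider than in any heavily digested library. The SNR19 body was at 0.705, 0.739 and 0.848 in the heavily digested libraries and at 0.528, 0.415, 0.523, 0.606 and 0.548 in the lightly digested ones. The groups did not overlap, and the dose difference was -0.49 ± 0.08 (SE, adjusted p = 0.0018, limma). Here and below, the share of all genes without overlap between digestions was not counted. In the dose test below, 84% of all bodies, 86.9% of upstream and 83.2% of downstream regions passed by limma, both directions together.

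The genes transcribed by RNA polymerase III had the gap over the gene itself. At SNR6 (chrXII:366235-366346, + strand), the U6 gene, it ran from a median of -53.5 to 109.5 bp and so covered nearly the whole 112 bp gene. Relative coverage of the SNR6 body was 0.152, 0.232 and 0.471 (lowest, median, highest) in the heavily digested libraries and 1.06, 1.11, 1.10, 1.34 and 1.70 in the lightly digested ones. The groups were far apart, and the low dose was higher by 1.94 ± 0.08 (SE) on the log2 scale (adjusted p = 4.8e-05, limma with Benjamini-Hochberg adjustment, in the 7 libraries described with the dose test). SNR52 (chrV:431129-431220, - strand), a box C/D gene, had a gap from -221.5 to 64 bp, over its leader and most of the gene. Its body was at 0.324, 0.388 and 0.523 in the heavily digested libraries and at 1.54, 1.26, 1.31, 1.40 and 1.20 in the lightly digested ones, a difference of 1.47 ± 0.11 (SE, adjusted p = 0.00015). These were the largest body differences of the 79 genes.

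**Figure D4:**
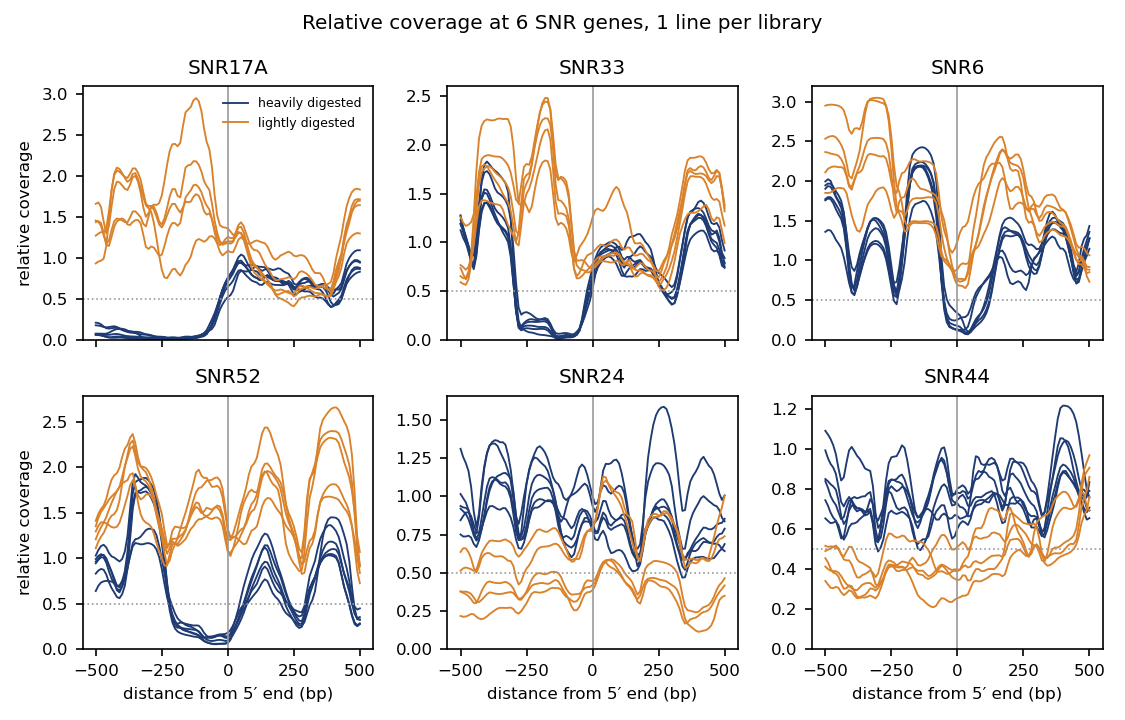
Relative coverage (y axis) against distance from the gene's 5′ end (bp, x axis) at 6 SNR genes, with 1 line per library, heavily digested in blue and lightly digested in orange. SNR17A and SNR33 show a gap of 268 to 294 and 266 to 293 bp upstream in blue, SNR6 and SNR52 a gap over the gene, and the intronic genes SNR24 and SNR44 lie lower in orange than in blue along much of the window.

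Intronic genes showed the opposite order. Their median gap was 0 to 16.5 bp in the heavily digested libraries, and in 5 of the 8 genes it was 0 bp in the median library. In the lightly digested libraries it was 171.5, 191, 176, 38.5 and 0 bp, and all 8 genes had a wider median gap there than in the heavily digested ones. The last 2 values came from the libraries whose file names give auxin, untreated OsTIR1 high replicate 2 and auxin high replicate 1. Gap widths inside other gene bodies were not measured. The median body coverage of all nuclear genes was also lower when lightly digested, at 0.777 to 0.887 against 1.02 to 1.05. Whether the wider gaps are particular to intronic genes was not tested.

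Their hosts are the ribosomal protein genes RPL7A (SNR39), RPL7B (SNR59) and RPS22B (SNR44), the translation genes EFB1 (SNR18), TEF4 (SNR38) and ASC1 (SNR24), NOG2 (SNR191), which acts in ribosome assembly, and IMD4 (SNR54), which acts in guanine nucleotide synthesis. SNR44 (chrXII:856710-856920, + strand) in RPS22B had a gap of 0, 0 and 17 bp when heavily digested and of 487, 584, 481, 163 and 207 bp when lightly digested. SNR24 (chrXIII:499984-500072, - strand) in ASC1 had 0, 0 and 23 bp against 326, 321, 292, 34 and 0 bp. SNR191 (chrXIV:721938-722211, - strand) in NOG2 had 28, 44.5 and 73 bp against 404, 841, 568, 86 and 408 bp. SNR44 and SNR191 did not overlap between digestions, and SNR24 did. SNR59 in RPL7B showed little of this, with at most 33 bp when heavily and 21 bp when lightly digested. RPL7A and RPL7B are near-identical copies, and SNR39, SNR59 and SNR39B are related to each other, so their values are uncertain.

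Clustered genes had a median gap of 31 to 64 bp in the heavily digested libraries and of 99, 146, 104, 0 and 0 bp in the lightly digested ones. The groups overlapped. Again the 2 values of 0 came from the libraries with auxin in the file name. At SNR78 (chrXIII:297278-297364, + strand), the leading gene of the 7-gene cluster, the gap was 103, 116.5 and 123 bp when heavily digested. It was 286, 438, 305, 0 and 0 bp when lightly digested.

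The effect of the dose was tested in the 7 libraries for which both sources gave the same dose and auxin state (3 low, 4 high), with strain and auxin state as a term. The 1 auxin library among them is alone in its state, so it adds nothing to the dose difference. That difference rests on cells without auxin. In the 300 bp upstream, 56 of 79 SNR genes rose at the low dose and 13 fell (adjusted p under 0.05, limma with Benjamini-Hochberg adjustment over all genes). Of all 6365 genes tested, 82.7% rose and 4.18% fell. The median log2 difference (low minus high, on log2 of relative coverage plus 0.1, which understates changes at low coverage) was 0.68 for SNR genes and 0.72 for all genes. In gene bodies 23 SNR genes rose and 24 fell, where 14.7% of 6363 genes rose and 69.3% fell, and the medians were -0.01 and -0.33. In the 300 bp downstream 42 rose and 18 fell, where 77.2% rose and 6.02% fell, and the medians were 0.27 and 0.61. With all 11 libraries grouped by label, 0 SNR genes passed in each region by limma, and 12, 3 and 4 had an unadjusted p under 0.05 in bodies, upstream and downstream. The share of all genes with such a p was not counted in that grouping.

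**Figure D5:**
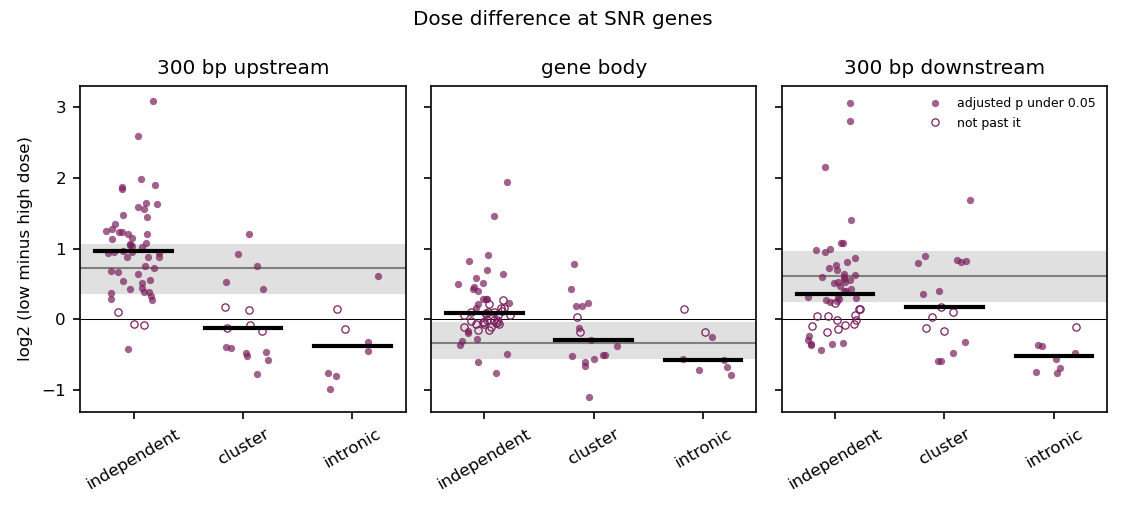
Log2 difference in relative coverage, low minus high dose (y axis), of the 300 bp upstream, the body and the 300 bp downstream of each SNR gene, by setting, with filled points past the threshold and bars at medians. The grey line and band are the median and quartiles of all nuclear genes: independent genes have medians of 0.96, 0.08 and 0.36, and intronic genes of -0.38, -0.57 and -0.52.

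The settings differed. Of the 54 independent genes 50 rose and 1, SNR68, fell upstream, with a median of 0.96, and 18 rose and 8 fell in the body. Of all genes 82.7% rose and 4.18% fell upstream, with a median of 0.72, and 14.7% of bodies rose. Of the 8 intronic genes 1 rose and 5 fell upstream, 6 fell in the body and 7 fell downstream. The protein-coding hosts fell in 8 of 8 cases over the whole gene, by 0.21 to 0.91 on the log2 scale. Both body counts stand beside the 69.3% of all gene bodies that fell. The intronic counts upstream and downstream stand beside 4.18% and 6.02% of all genes, but these are not like regions. Intronic genes lie inside a host gene, so their 300 bp flanks can be host body, for which 69.3% is the nearer share. How much of each flank lies in the host was not measured. In 5 of the 8 pairs the SNR gene had a higher value than its host. The bodies of SNR18 (-0.18, adjusted p = 0.060) and SNR59 (0.14, adjusted p = 0.059, limma) did not pass.

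SNR17A rose most upstream. Its upstream 300 bp was at 0.100, 0.117 and 0.130 in the heavily digested libraries and at 1.53, 2.17, 1.72, 1.07 and 1.43 in the lightly digested ones, with no overlap and a log2 difference of 3.09 ± 0.12 (SE, adjusted p = 1.2e-19). SNR33 followed, from 0.114, 0.149 and 0.220 to 1.58, 1.51, 1.45, 1.33 and 1.34, a difference of 2.59 ± 0.12. SNR11, SNR3, SNR45, SNR10, SNR19, SNR85, SNR4 and SNR17B completed the 10 largest, at 1.56 to 1.99. The 10 largest falls, from -0.42 to -0.99, were at the intronic genes SNR24, SNR191, SNR44 and SNR38, the clustered genes SNR77, SNR51, SNR76, SNR128 and SNR75, and SNR68.

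Downstream, SNR48 (3.06 ± 0.14 SE), SNR189 (2.80 ± 0.10) and SNR39B (2.16 ± 0.16) rose most. The SNR48 downstream 300 bp was at 0.073, 0.092 and 0.164 in the heavily digested libraries and at 1.52, 1.46, 1.84, 1.06 and 1.43 in the lightly digested ones. The groups did not overlap. SNR53, SNR81, SNR58, SNR17A, SNR52, SNR60 and SNR66 came next, at 0.96 to 1.69. The largest falls, from -0.38 to -0.76, were at the intronic genes SNR18, SNR24, SNR191, SNR54, SNR38 and SNR39, the clustered genes SNR78, SNR41 and SNR77, and SNR14.

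In bodies, after SNR6 and SNR52, the genes SNR66, SNR47, SNR72, SNR13, SNR65, SNR85, SNR11 and SNR64 rose most, by 0.50 to 0.90. SNR66, which had no gap, was at 0.949, 1.06 and 1.15 in the heavily digested libraries and at 2.02, 2.26, 1.88, 1.86 and 1.44 in the lightly digested ones. These groups did not overlap. The largest falls were at SNR78 (-1.10 ± 0.08 SE), SNR191, SNR84, SNR44, SNR39, SNR70, SNR76, SNR34, SNR24 and SNR38, the last 9 at -0.79 to -0.57. The SNR191 body was at 0.698, 0.783 and 0.876 in the heavily digested libraries and at 0.463, 0.330, 0.354, 0.552 and 0.521 in the lightly digested ones, without overlap. The 550 bp SNR84 body was at 0.755, 0.834 and 0.894 against 0.494, 0.458, 0.443, 0.410 and 0.469, also without overlap, while its upstream region rose by 1.28 ± 0.11 (SE).

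Within clusters the values differed by the gene's place. The upstream region of the leading gene rose in 5 of 5 clusters, by 0.42 to 1.21, while those of the 7 middle genes ranged from -0.78 to -0.08, with 4 that fell and 0 that rose. The region downstream of the last gene rose in 5 of 5 clusters, by 0.80 to 1.69. The bodies of the 5 leading genes all fell, by -0.12 to -1.10, and those of the last genes rose in 4 clusters and fell in 1. Among all genes 82.7% rose upstream, 77.2% rose downstream and 69.3% of bodies fell. Of the middle genes 1 rose and 4 fell in the body, and 2 rose and 1 fell downstream. Downstream of the leading genes 1 rose and 3 fell, and upstream of the last genes 0 rose and 3 fell. At SNR41, the leading gene of its cluster, the upstream region was at 0.564, 0.590 and 0.634 in the heavily digested libraries and at 1.32, 1.54, 1.53, 1.03 and 1.27 in the lightly digested ones. These did not overlap. Windows within a cluster overlap, so these values are not independent.

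The effect of auxin, given to deplete Top1 and Top2, was tested between 2 libraries with auxin and 2 untreated OsTIR1 libraries, all heavily digested. Depletion itself was not measured in these data. Untreated OsTIR1 low replicate 2 and auxin low replicate 1, both labelled low dose, are among these libraries. The heavily digested libraries without OsTIR1 were in the same fit and add to its estimate of spread. By limma, 0 of 79 SNR genes passed in bodies, upstream or downstream, where 0%, 0.456% and 0.236% of all genes did. Without adjustment 20, 13 and 9 SNR genes (25.3%, 16.5% and 11.4%) had a p under 0.05, where 19.5%, 10.4% and 10.3% of all genes did. The median log2 difference of SNR genes (auxin minus untreated) was 0.07 in bodies, 0.09 upstream and 0.06 downstream, against -0.0022, -0.0042 and -0.02 for all genes.

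SNR6 had the largest difference. Its body was at 0.168 and 0.152 in the untreated OsTIR1 libraries, at 0.382 and 0.471 with auxin, and at 0.216 and 0.249 without OsTIR1. The auxin libraries were above all others, and the difference of 1.01 ± 0.09 (SE) missed the threshold (adjusted p = 0.080, limma). It passed with a pseudocount of 1 (adjusted p = 0.038) and with a mean-dependent, robust variance (adjusted p = 0.039). Of all gene bodies, 1.25% and 3.27% passed in these 2 fits. In the lightly digested libraries the SNR6 body was at 1.06 and 1.11 without OsTIR1 and 1.10 in untreated OsTIR1, and at 1.34 and 1.70 in the 2 libraries with auxin in the file name.

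Beside SNR6, genes of the 7-gene cluster and SNR24 had the smallest adjusted p. The upstream regions of SNR76 (0.51 ± 0.11 SE, adjusted p = 0.057) and SNR78 (0.51 ± 0.11, adjusted p = 0.088), the downstream region of SNR78 (0.50 ± 0.11, adjusted p = 0.088), the body of SNR77 (0.50 ± 0.09, adjusted p = 0.097), and the body and downstream region of SNR24 (0.43 ± 0.09 and 0.49 ± 0.11, adjusted p = 0.12 and 0.10) were higher with auxin but missed the threshold by limma. With the replicate number as a block, SNR76 upstream (adjusted p = 0.046) and SNR78 and SNR24 downstream (adjusted p = 0.034 and 0.037) passed. Among all genes 0.692% passed upstream and 0.865% downstream with that block. With the robust variance, the bodies of SNR77 (adjusted p = 0.040), SNR24 (adjusted p = 0.035), SNR80 (adjusted p = 0.039) and SNR82 (-0.27, adjusted p = 0.039) and the SNR24 downstream region (adjusted p = 0.0495) passed. With that variance 3.27% of all bodies and 0.377% of all downstream regions passed. The SNR24 body was at 0.824 and 0.702 untreated and at 1.11 and 1.02 with auxin. These groups did not overlap, and the libraries without OsTIR1 were below both auxin libraries, at 0.800 and 0.893. How many of all genes show such an order was not counted. The largest fall in value was at the body of SNR53, the last gene of its cluster, at 1.53 and 1.47 untreated and 0.850 and 1.30 with auxin (-0.47 ± 0.17 SE, adjusted p = 0.23, limma), which did not pass. Without OsTIR1 it was at 1.42 and 1.44.

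The lightly digested libraries were also read by file name. The SNR78 body was at 0.295 and 0.229 without OsTIR1 and 0.264 in untreated OsTIR1, and at 0.732 and 0.885 in the 2 libraries with auxin in the file name, 1 of which is labelled untreated. SNR24 was at 0.529, 0.542 and 0.518, and at 1.01 and 1.01. In both genes the 2 libraries were above the other 3. The same held for SNR80, at 0.926, 0.902 and 0.716 against 1.37 and 1.30, and for SNR67, at 0.461, 0.456 and 0.487 against 0.879 and 1.01. These genes were chosen after their values were seen, so their order is not a test. How many of all genes show that order was not counted, and 2 of the 3 libraries lacked OsTIR1. Within the 7-gene cluster the log2 differences ranged from 1.31 at SNR78 to 0.10 at SNR75 and -0.17 at SNR72. Mean fragment length was 161.1, 160.3 and 149.8 bp in the 3 libraries and 162.2 and 150.1 bp in the 2, and the part of digestion in these differences was not tested. A fit of these 5 libraries with auxin by file name held only 1 untreated OsTIR1 library, so effect sizes alone are given. The median log2 difference of SNR genes was 0.20 in bodies, 0.04 upstream and -0.01 downstream. For all genes it was 0.03, -0.09 and -0.12. A fit of all 11 libraries with dose and auxin by file name called 3 SNR bodies higher with auxin, SNR80 (0.55), SNR6 (0.78) and SNR24 (0.62 on the log2 scale), and 0 lower, where 3.58% of all genes passed. Which of the sources is right for these libraries cannot be told from the labels. On dose, mean fragment length lay on the side of the file name. Libraries with matching sources had 129.3 to 140.3 bp at the high dose and 149.8 to 161.1 bp at the low dose. Untreated OsTIR1 low replicate 2 had 132.4 bp and auxin low replicate 1 had 129.0 bp. Untreated OsTIR1 high replicate 2 had 162.2 bp and auxin high replicate 1 had 150.1 bp.

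Expression of OsTIR1 without auxin had no detected effect at SNR genes. Between untreated OsTIR1 and no OsTIR1, 2 heavily digested libraries each, 0 of 79 SNR genes passed by limma in bodies, upstream or downstream, where 0.0158%, 0.0472% and 0.0157% of all genes did, and 3, 1 and 0 had an unadjusted p under 0.05. The median log2 differences were -0.02, -0.03 and -0.04. The single differences ran from -0.35 to 0.23, the lowest of them at the body of SNR6.

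Genes for snoRNA-associated proteins were compared as a list of 26, which holds the box C/D core (NOP1, NOP56, NOP58 and SNU13), the box H/ACA core (CBF5, NHP2, NOP10 and GAR1), assembly factors, and factors of processing and termination such as RNT1 and NRD1. At the low dose 2 of their 26 bodies rose and 21 fell, with a median log2 difference of -0.54, while upstream 23 rose and 0 fell, with a median of 0.79. Downstream 18 rose and 1 fell. Among all genes 69.3% of bodies fell, 82.7% rose upstream and 77.2% rose downstream. With auxin, and between the strains, 0 of the 26 passed in any region by limma.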

How the data were processed

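Per the labels' protocols, fixed spheroplasts were digested with micrococcal nuclease and the DNA sequenced. Per the submitters' processing notes, reads were aligned with Bowtie2 to sacCer3; the version and the handling of duplicate and multiply mapped reads are not given in the sources used here. The deposited files hold, per base of 17 contigs, the authors' whole-number fragment coverage and the number of fragments per contig. A path written in each file shows that the authors kept only lengths from 95 to 225 bp, so shorter protected DNA is not counted. A second, per-contig scaled list was not used. Coverage was divided by the nuclear mean without the ribosomal DNA (chrXII:451786-489469). Genes came from the R64 annotation; 6369 nuclear genes with a strand, at least 1000 bp from contig ends and outside the ribosomal DNA were kept.

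Bodies and 300 bp flanks with a mean of at least 0.1 entered limma 3.58.1 (lmFit, eBayes, two-sided, R 4.3.3) as log2 values with a pseudocount of 0.1, adjusted by Benjamini-Hochberg over all genes at a threshold of 0.05; the script was tested on simulated data. Limma shares the estimate of spread across genes, so its p-values can be far smaller than the few libraries alone would give. Flanking peaks are the highest points within 200 bp of the gap. Python 3.11.15 made the other values. The members, lists and tests were chosen with earlier results of these data known. Genes were named by rule: every intronic gene, the spliceosomal and U3 genes, clusters, the 5 widest gaps and the narrowest (ties kept), and up to 10 per direction and region past the threshold. SNR189, SNR30, SNR10, SNR86, genes named by gap edge and those of the auxin comparison were chosen after their values were seen. Dose was tested in 7 libraries without conflicting labels, and auxin and strain in the heavily digested libraries. Promoter motifs were not analysed here.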

Additional observations from a re-analysis of the deposited data

How the results depend on the processing

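The dose counts, both directions together, stayed within 1.5 times of those reported under every alternative tried (pseudocount 1, no filter, robust variance, libraries without OsTIR1, dose by file name, replicate block, each library left out) except all 11 libraries by label, which gave 0 in all 3 regions; the cause was not tested. By direction, dose by file name gave 15 lower bodies (24 reported) and 7 lower upstream (13 reported), and leaving out no OsTIR1 high replicate 1 gave 15 higher bodies (23 reported). The auxin counts of 0 became 1 (pseudocount 1) and 5 (robust variance, where 3.27% of all genes passed) in bodies, 1 (replicate block) and 0 to 8 (libraries left out, 8 without auxin high replicate 2, where 13.4% of all genes passed, and 2 without auxin low replicate 1) upstream, and 1 (robust variance), 2 (replicate block) and 0 to 2 (libraries left out) downstream. Of all genes, 1.25% of bodies passed with pseudocount 1, and 0.692% passed upstream and 0.865% downstream with the replicate block. With the robust variance 0.377% passed downstream. With dose and auxin by file name, an alternative chosen after seeing the data, bodies gave 3, where 3.58% of all genes passed. The strain counts of 0 held throughout. The median gap over all 79 genes was 130.5 bp in heavily digested libraries, 103 bp under a threshold of 0.3, 161 bp under 0.7, 145.5 bp when followed beyond the window (chosen after seeing the data), and 7 bp in lightly digested libraries. Intronic minus independent genes was -139.75 bp, -124 bp under 0.3, -92.5 bp under 0.7, and 171.5 bp in lightly digested libraries, a reversal. Flank heights moved by less than the spread between libraries. The median body log2 dose difference of -0.01 was 0.072 in the 4 libraries without OsTIR1 and 0.065 with the dose of the file name, and ran from -0.050 to 0.072 with each library left out (0.072 without untreated OsTIR1 high replicate 1 or low replicate 1). A library alone in its state is taken up by that state's term. Leaving out either untreated OsTIR1 library therefore repeats the fit of the 4 libraries without OsTIR1. Leaving out auxin high replicate 2 repeats the reported dose fit, so these are not separate checks. The labels say that the OsTIR1 culture was split, but not which libraries share a culture, so the numbers were not taken as pairs. Deviations of same-numbered libraries correlated with r = 0.07 across genes without OsTIR1 and r = -0.34 between untreated and auxin OsTIR1. With the auxin numbers crossed in the block, chosen after seeing the data, 0 SNR genes passed in bodies, 2 upstream and 2 downstream. Of all genes 0%, 1.46% and 0.865% did.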
